A study of Mus musculus with 2 samples.

Results

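The interferon-stimulated antiviral effector genes are the genes that a cell switches on after it senses interferon and whose products act directly on a virus or on the machinery it uses. Here they were a list of 41 mouse genes, chosen by name with earlier results of these data known. The counts below therefore describe the list and do not test it. A gene was measured if the platform annotation gave it at least 1 probe set with that single symbol. Of the 41 genes, 39 had such a probe set, out of 18193 genes on the array. Isg15 and Ifi44 had none and have no value below. A gene was represented by the probe set with the highest mean over both arrays.

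Expression was measured on Affymetrix arrays in cultured endothelial cells, which form the inner lining of blood vessels, from E10.5 mouse embryos (embryonic day as labelled). Strain C57/BL6 is given for both samples, and the embryos carried Snail1 f/f, a Snail1 gene flanked by recognition sites for the Cre recombinase. The WT sample was infected with adeno-βGal, an adenovirus carrying β-galactosidase, and the Snail1 KO sample with adeno-Cre, and both were left to recover for several days in culture with 20% serum and endothelial growth factors. Each group holds 1 array, so every difference below is described by its size, with no test, no error between cultures and no p-value. Both groups had the floxed gene and a virus, and an array of Cre-treated cells with an unfloxed gene was not analysed here. Loss of Snail1, the action of Cre and a difference between the viruses therefore cannot be told apart for any gene below.

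Snai1, the targeted gene, was at a log2 value of 5.33 in WT against 3.59 in Snail1 KO, 3.35-fold lower. The Snail1 KO value lies under the filter level given below, so this size is not exact. The 4 probe sets that detect the Cre gene are control probe sets of the array. They lay between 2.69 and 3.83 in WT and between 11.87 and 12.86 in Snail1 KO. Whether this signal came from the virus or from control RNA added to an array was not tested. All 7 endothelial markers were within 2-fold, between 9.18 and 13.36 in WT and between 9.52 and 12.96 in Snail1 KO. Over the 12874 genes that passed a filter on dim signal (a mean log2 value above 3.97, the 40th percentile of probe sets), the median log2 difference was -0.01. Their robust SD was 0.32, which includes probe error and does not replace replicate cultures.

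Interferons are secreted proteins that warn neighbouring cells of a virus. Their receptors act through Janus kinases on a complex of transcription factors that includes IRF9 and binds the interferon-stimulated response element (ISRE) in the promoters of its target genes. Many of the effectors encoded there bind or cut viral RNA, starve the virus of nucleotides or hold budding particles at the cell surface, and others switch the response off again. Endothelial cells respond to interferon and line the route by which viruses spread through tissues.

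All 39 measured members had a lower value in Snail1 KO than in WT. Mx1 and Oas3 did not pass the filter, and the other 37 were analysed. Of these, 24 were at least 2-fold lower, against 1.84% of all genes analysed, while no member was 2-fold higher, against 0.971%. The median log2 difference, Snail1 KO minus WT, was -1.18 over the 37 genes, which is 2.27-fold lower, and -1.14 when the 2 dim genes were included. A lower value by any amount was found in 37 of 37 members and in 50.9% of all genes analysed. In RNA from whole cultures, fewer cells that express a gene and less RNA per cell cannot be told apart.

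The size of the difference varied widely among members. At least 4-fold lower were 14 members, against 0.419% of all genes analysed, with log2 differences from -4.57 for Oasl2 to -2.01 for Usp18. These 14 were among 54 such genes of the 12874 analysed. At 1.5-fold, 34 members were lower, against 6.08% of all genes analysed, and at 3-fold 15 members, against 0.699%. Another 10 members lay between 2-fold and 4-fold, from -1.81 for Ddx60 to -1.09 for Ifi35, and 13 were within 2-fold, from -0.94 for Uba7 to -0.31 for Slfn2. Of the 50 analysed genes with the most negative differences, 13 were members, with Oasl2 in rank 1, Plscr2 in rank 7 and Rsad2 in rank 11. A probe-set value depends on its probes as well as on the transcript, so values are compared between arrays and not between genes.

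**Figure D1:**
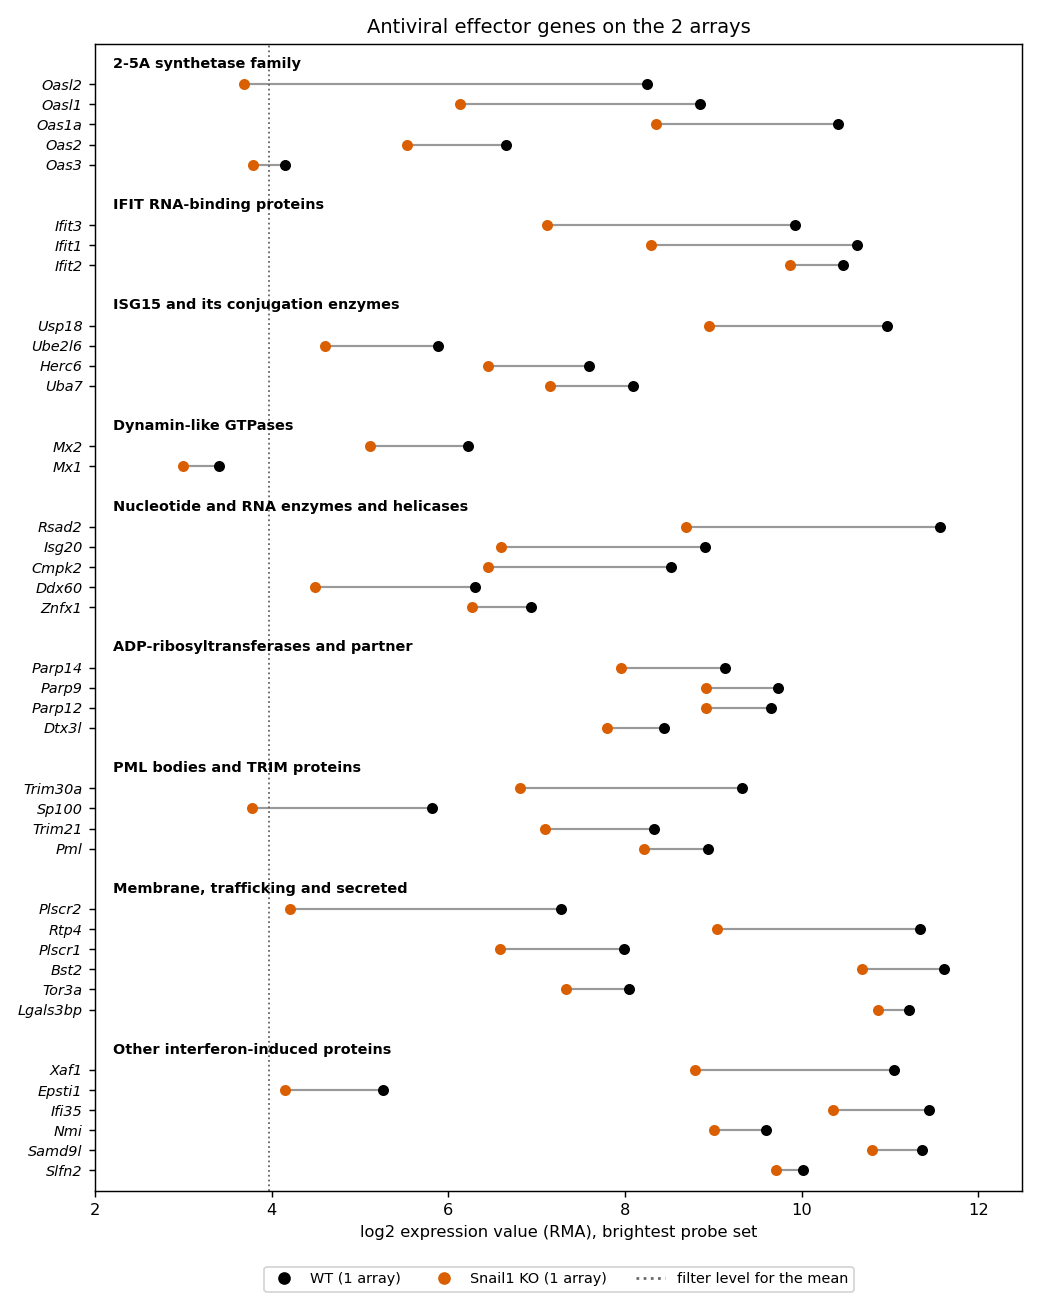
Log2 expression value (x axis) of each of the 39 measured members (y axis, grouped by role) on the WT array (black) and the Snail1 KO array (orange), 1 array each, with the filter level of 3.97 for the mean dotted. Every orange point lies left of its black point, by 23.7-fold for Oasl2 at the top and by 1.24-fold for Slfn2 at the bottom.

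**Figure D2:**
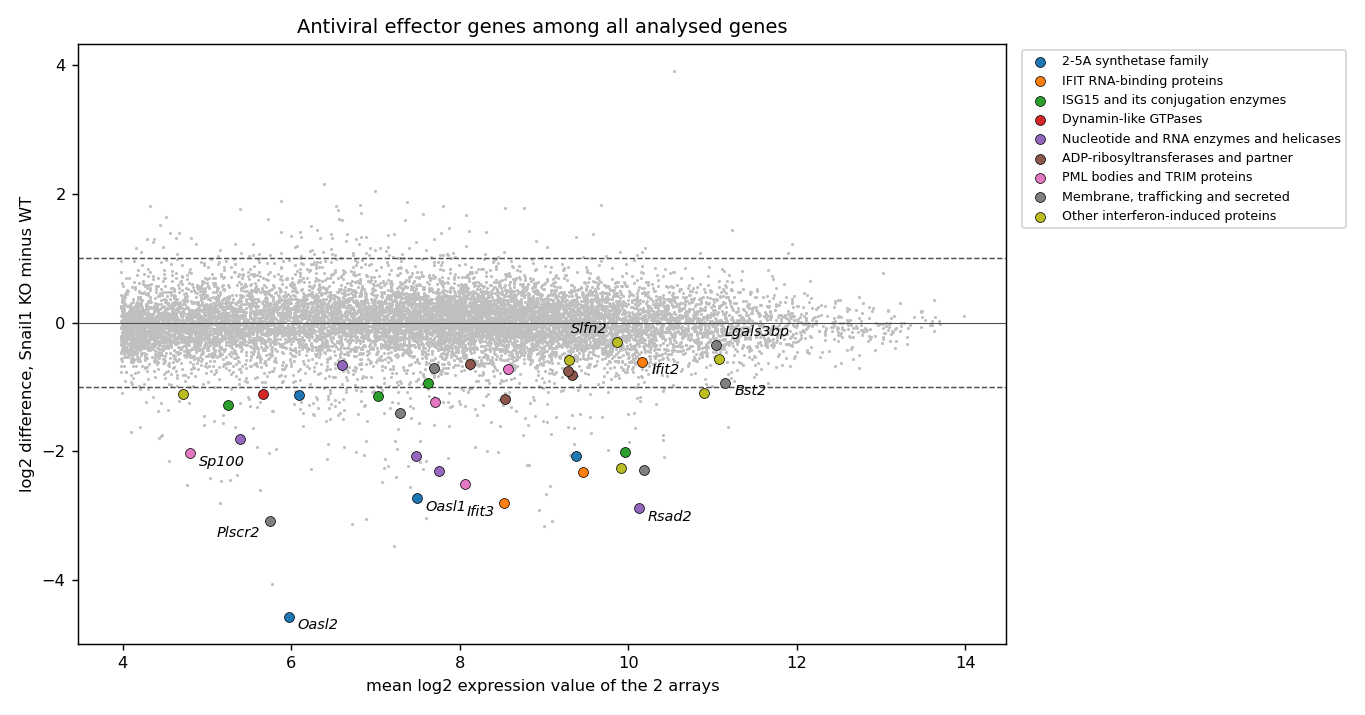
Log2 difference, Snail1 KO minus WT (y axis), against the mean log2 value of the 2 arrays (x axis) for 12874 genes (grey) and the 37 analysed members (coloured by role). Dashed lines mark 2-fold, and 24 members lie below the lower line at levels from dim to bright.

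The promoters were searched because the members differed in the same direction and the ISRE is the element through which interferon acts on such genes. RefSeq promoter windows of GRCm38.p6, from 250 bases before to 50 bases after the annotated start of transcription, were found for 32 of the 41 members. The ISRE core was searched as GAAA, any 2 bases and again GAAA, on both strands. It was present in the windows of 10 of the 32 members, against 3.99% of all 27025 genes with a window and 3.48% of the 10371 analysed ones. The members that held it were Ifit1, Ifit3, Rsad2, Trim30a, Trim21, Oas1a, Oas3, Ddx60, Bst2 and Isg15. The list was made of interferon-stimulated genes. A share above that of all genes would follow from this choice alone and describes no difference between the arrays. Of the 18 analysed members that were at least 2-fold lower and had a window, 7 held the motif, and of the 11 within 2-fold, 1 did, Bst2. The median log2 difference was -2.20 over the 8 analysed members with the motif and -1.09 over the 21 without. Oas3, which has the motif but did not pass the filter, differed by -0.36 and is not in these medians. A link between the motif and the size of the difference was not tested. In 9 members the motif lay before the start site, and the nearest match began between 14 and 124 bases from it.

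The 8 stretches that follow, 80 bases each, are the measured members with an ISRE before the start site, written 5′ to 3′ on the strand of the gene, with ISRE matches in capitals. They show how the matches are spaced, in pairs in Ifit1, Ifit3 and Ddx60, overlapping in Oas1a and Bst2, and single in Rsad2, Trim30a and Oas3. Capitals that begin with TTTC are the same motif read on the other strand.
Ifit1, chr19:34640769-34640848, plus strand: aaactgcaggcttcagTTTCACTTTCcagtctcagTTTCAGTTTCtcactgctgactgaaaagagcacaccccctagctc
Ifit3, chr19:34583372-34583451, plus strand: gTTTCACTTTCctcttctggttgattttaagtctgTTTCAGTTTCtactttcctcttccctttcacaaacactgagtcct
Rsad2, chr12:26456528-26456607, minus strand: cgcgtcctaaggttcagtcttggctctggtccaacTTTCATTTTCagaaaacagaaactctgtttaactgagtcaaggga
Trim30a, chr7:104465194-104465273, minus strand: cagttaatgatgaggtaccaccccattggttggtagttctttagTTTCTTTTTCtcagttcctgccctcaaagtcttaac
Oas1a, chr5:120907526-120907605, minus strand: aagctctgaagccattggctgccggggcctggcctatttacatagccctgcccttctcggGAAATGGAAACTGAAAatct
Ddx60, chr8:61928007-61928086, plus strand: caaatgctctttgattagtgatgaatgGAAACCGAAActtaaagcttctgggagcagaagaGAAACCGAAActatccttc
Bst2, chr8:71537552-71537631, minus strand: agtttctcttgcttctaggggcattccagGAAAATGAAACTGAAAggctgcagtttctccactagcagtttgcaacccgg
Oas3, chr5:120777690-120777769, minus strand: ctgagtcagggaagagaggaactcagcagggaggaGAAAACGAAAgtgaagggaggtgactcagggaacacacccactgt

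CAGGTG, the E-box that Snail proteins bind, was searched in the same windows on both strands. It was present in 10 of the 32 members and in 22.6% of all genes, and it overlapped no ISRE. It was held by 6 of the 18 members that were at least 2-fold lower and by 4 of the 11 within 2-fold. The median log2 difference was -1.26 over the 10 members with it and -1.24 over the 19 without. Oasl2 and Oasl1 held no ISRE match in their windows, which says only that these letters are not in these bases. No match of either motif was tested for binding or for a link to the differences.

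The oligoadenylate synthetases make a short second messenger from ATP when they meet double-stranded RNA, and that messenger activates RNase L, which cuts RNA. Oasl1 and Oasl2 are their relatives. Oasl2 had the largest difference of any analysed gene, with a log2 value of 8.25 in WT against 3.68 in Snail1 KO, 23.7-fold lower. That Snail1 KO value is under the filter level, and without a measure of background the size is not exact. Oasl1, an inhibitor of Irf7 translation in mouse, was at 8.85 in WT against 6.13 in Snail1 KO, 6.61-fold lower. Oas1a, whose ISRE pair overlaps close to the start site, was at 10.41 and 8.35, 4.19-fold lower. Oas2 was at 6.65 and 5.53, 2.18-fold lower. Oas3 was at 4.15 and 3.78, with a mean just under the filter level. All 4 analysed members of the family were at least 2-fold lower, with a median log2 difference of -2.40. Oas1a belongs to a mouse cluster of near-identical genes that the probes may not tell apart.

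The IFIT proteins bind viral RNA and block its translation. Ifit3 was at 9.93 in WT against 7.12 in Snail1 KO, 7.0-fold lower, and Ifit1, which recognises the cap of foreign mRNA, was at 10.62 and 8.29, 5.02-fold lower. Ifit2 was at 10.47 and 9.86, 1.52-fold lower. The first 2 were thus past 4-fold while Ifit2 was within 2-fold. The promoters of Ifit1 and Ifit3 each hold a pair of ISRE matches, shown above, and the Ifit2 windows hold none of this form. Whether the matches bear on the sizes was not tested.

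Isg15 is a ubiquitin-like protein that is secreted or joined to other proteins. Its promoter window held the ISRE, but its level is not reported here. The enzymes of the conjugation pathway were measured. Uba7, the activating enzyme, was at 8.09 in WT against 7.15 in Snail1 KO, 1.91-fold lower. Ube2l6, the conjugating enzyme, was at 5.89 and 4.61, 2.43-fold lower, and Herc6, the main ligase in mouse, was at 7.60 and 6.45, 2.21-fold lower. The other 3 Herc6 probe sets differed by log2 values of -0.67, -0.08 and 0, and the mean of all of them, -0.47, is within 2-fold. Usp18 removes Isg15 from proteins and is also a brake that binds the interferon receptor. It was the most lowered of these genes, at 10.97 and 8.95, 4.04-fold lower, and 3 of the 4 analysed genes of the group, Herc6 among them, were past 2-fold in the brightest probe set.

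Mx proteins are GTPases that trap viral ribonucleoproteins, and many laboratory strains carry a deletion in Mx1. Mx1 was too dim for the filter, with values of 3.40 in WT against 3.0 in Snail1 KO. Mx2 was at 6.22 and 5.11, 2.16-fold lower.

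Among enzymes acting on nucleotides and RNA, Rsad2, which encodes viperin and makes a chain-terminating nucleotide, was at 11.57 in WT against 8.69 in Snail1 KO, 7.36-fold lower. Cmpk2, a mitochondrial nucleotide kinase that supplies viperin's substrate, was at 8.52 and 6.45, 4.20-fold lower, while the mean of its probe sets was a log2 difference of -1.28. Isg20, an RNA exonuclease, was at 8.91 and 6.60, 4.95-fold lower. Ddx60, a helicase of the RNA-sensing pathway, was at 6.30 and 4.49, 3.50-fold lower. Znfx1, a helicase that senses double-stranded RNA at mitochondria, was at 6.93 and 6.27, 1.58-fold lower. Of these 5 genes, 3 were at least 4-fold lower, and their median log2 difference was -2.07.

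The ADP-ribosyltransferases had smaller differences. Parp9 and Dtx3l encode partners in a complex that modifies histones and ubiquitin, and were at 9.73 and 8.44 in WT against 8.92 and 7.80 in Snail1 KO, 1.76-fold and 1.56-fold lower. Parp12, a zinc finger member that binds RNA, was at 9.66 and 8.91, 1.68-fold lower. Parp14, a coactivator of STAT6, was at 9.13 and 7.95, 2.27-fold lower and the 1 gene of this group past 2-fold in its brightest probe set. Its other probe set gave a log2 difference of -0.67, and the mean of both, -0.93, is within 2-fold. The median log2 difference of the 4 genes was -0.78.

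Pml and Sp100 are the scaffold and a core component of PML nuclear bodies, which silence incoming viral DNA. Pml was at 8.94 in WT against 8.21 in Snail1 KO, 1.66-fold lower. Sp100 was at 5.81 and 3.78, 4.09-fold lower, with its Snail1 KO value below the filter level. Trim21, a cytosolic receptor for antibody-coated virus, was at 8.33 and 7.09, 2.36-fold lower, with another probe set at a log2 difference of -0.75 and a mean of both, -0.99, just within 2-fold. Trim30a, a mouse regulator of NF-kB signalling, was at 9.32 and 6.81, 5.69-fold lower, and a second probe set gave a log2 difference of -2.56. Trim30a has close relatives in a mouse cluster that its probes may not separate.

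Among membrane and secreted products, Bst2, or tetherin, holds budding virions at the cell surface. It was at 11.62 in WT against 10.69 in Snail1 KO, 1.91-fold lower, and its promoter holds the overlapping ISRE matches shown above. Rtp4, a transmembrane chaperone of receptors, was at 11.34 and 9.04, 4.90-fold lower. The phospholipid scramblases differed, with Plscr2 at 7.28 and 4.20, 8.44-fold lower, and Plscr1 at 7.99 and 6.58, 2.65-fold lower. Their sequences are alike, and the Plscr1 probe set is of a kind that can bind several transcripts. Tor3a, a torsin ATPase, was at 8.04 and 7.33, 1.64-fold lower. Lgals3bp, a secreted glycoprotein that binds galectins, was at 11.21 and 10.86, 1.27-fold lower.

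Of the remaining genes, Xaf1, a promoter of apoptosis, was the most lowered, at 11.05 in WT against 8.79 in Snail1 KO, 4.78-fold lower. Ifi35 and Nmi, which bind each other and act as released danger signals, were at 11.44 and 9.59 in WT against 10.35 and 9.01 in Snail1 KO, 2.13-fold and 1.5-fold lower. Epsti1 was at 5.26 and 4.15, 2.16-fold lower. Its other probe sets, all below the filter level, differed by log2 values of -0.84, -0.13 and -0.02. Samd9l, which restricts poxviruses, was at 11.36 and 10.80, 1.48-fold lower. Slfn2, which protects tRNA from cleavage in mouse T cells, was at 10.01 and 9.71, 1.24-fold lower and the smallest difference among the 37. Of the 6 analysed genes of this group 3 were past 2-fold in the brightest probe set, with a median log2 difference of -0.84.

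Different probe sets of the same gene gave the same direction in most cases. The members had 66 probe sets, of which 64 were lower in Snail1 KO, and the other 2 were a Tor3a probe set at a log2 difference of 0.007 and a Herc6 probe set with the same value on both arrays. Of the 15 genes with several probe sets above the filter level, 7 were at least 2-fold lower in all of them. Cmpk2, Trim21, Parp14 and Herc6 were past 2-fold in some and not in others, and the remaining 4 were past it in none. The other Cmpk2 probe set gave a log2 difference of -0.49 against -2.07 in the brightest, which was the widest gap. Rsad2 was lowered in all 3 of its probe sets, from -2.17 to -2.99. In 12 of the 17 genes with several probe sets the brightest was also the most lowered, so the chosen probe set tended to give the larger difference.

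**Figure D3:**
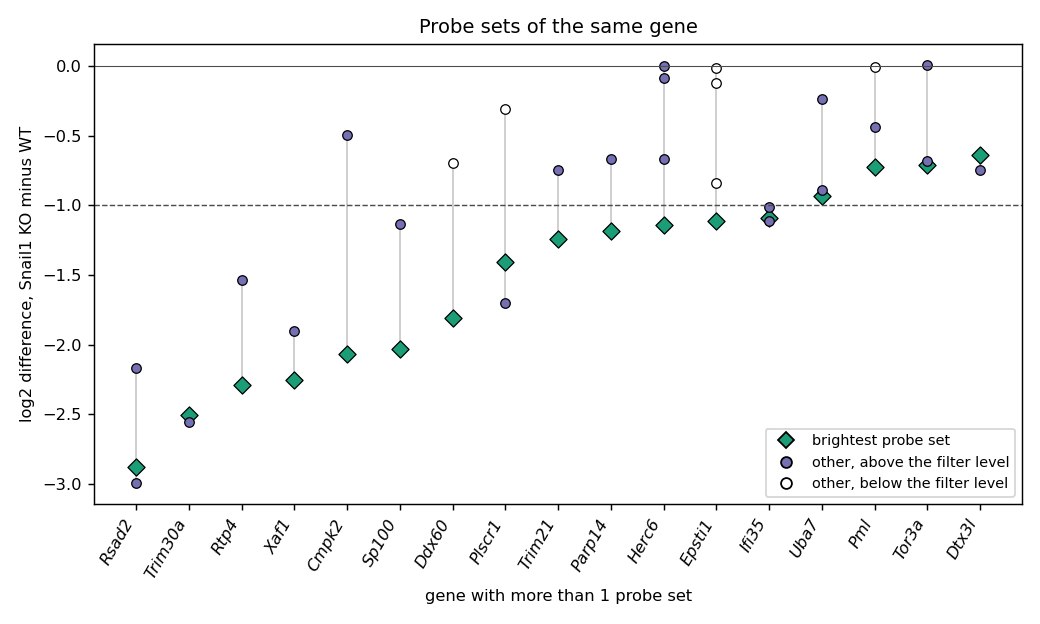
Log2 difference, Snail1 KO minus WT (y axis), of every probe set of the 17 members with more than 1 (x axis), with the brightest as a green diamond and probe sets below the filter level as open circles. Rsad2, Trim30a, Rtp4 and Xaf1 lie below the dashed 2-fold line in all probe sets, while Herc6, Epsti1, Pml and Tor3a each have at least 1 probe set at or near 0.

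Several members are neighbours on a chromosome in the RefSeq gene order, with no protein-coding gene between them. The log2 differences of such neighbours were often unequal. Ifit2 and Ifit3 are adjacent and differed by -0.61 and -2.81. Oasl1 and Oasl2 are adjacent at -2.73 and -4.57, and Plscr1 and Plscr2 at -1.41 and -3.08. Rsad2 and Cmpk2 are adjacent at -2.88 and -2.07. Closest to each other were Parp9 and Dtx3l, at -0.81 and -0.64. With 1 array a group these gaps have no error.

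The rest of the interferon pathway was read in 5 lists of 50 genes. Of 37 analysed genes of these lists, 5 were at least 2-fold lower, against 1.84% of all genes analysed. None was 2-fold higher, against 0.971%. Of 10 interferon genes, 7 had a probe set and 2 passed the filter, Ifna1 at 4.66 in WT against 4.70 in Snail1 KO and Ifna4 at 4.25 and 3.90. Ifnb1, interferon beta, was too dim for the filter, with values of 3.89 in WT against 3.18 in Snail1 KO. Arrays of RNA do not measure interferon protein in the medium.

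Receptors and kinases were near equal on the 2 arrays, with all 8 analysed genes within 2-fold and a median log2 difference of 0.02. Of these, 4 were higher and 4 lower. Ifnar1, a chain of the type I interferon receptor, was at 7.78 in WT against 8.28 in Snail1 KO, 1.41-fold higher. Its other probe set differed by a log2 value of 0.19. The kinase Jak1 was at 10.28 and 10.64, while its other 2 probe sets differed by log2 values of -0.29 and 0.07. The receptor gene Ifngr1 was 1.24-fold lower. Brakes were also within 2-fold in all 5 analysed genes, with a median of -0.02, and Ptpn2, a phosphatase of this pathway, was at 9.12 and 8.71. Among 8 transcription factors, with a median log2 difference of -0.39, 7 were lower and 1 was past 2-fold. That gene was Irf7, a factor that amplifies interferon production, at 10.36 and 7.69, 6.34-fold lower. Stat2 was at 8.03 and 7.07, 1.94-fold lower, while its other probe set differed by a log2 value of -0.43. Irf1 was at 8.08 and 7.64, and Irf9, the DNA-binding partner of Stat2, at 9.10 and 8.69. Of 14 analysed sensors and adaptors, 4 were at least 2-fold lower, against 1.84% of all genes analysed, with a list median of -0.44. They were Zbp1, a sensor of Z-form nucleic acid, at 8.29 and 5.16, Ifih1, which encodes the RNA sensor MDA5, at 9.94 and 8.22, the RIG-I-like receptor Dhx58 at 8.41 and 7.19, and Ddx58, which encodes RIG-I, at 9.49 and 8.48. The other 2 Dhx58 probe sets differed by -0.34 and 0.20.

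**Figure D4:**
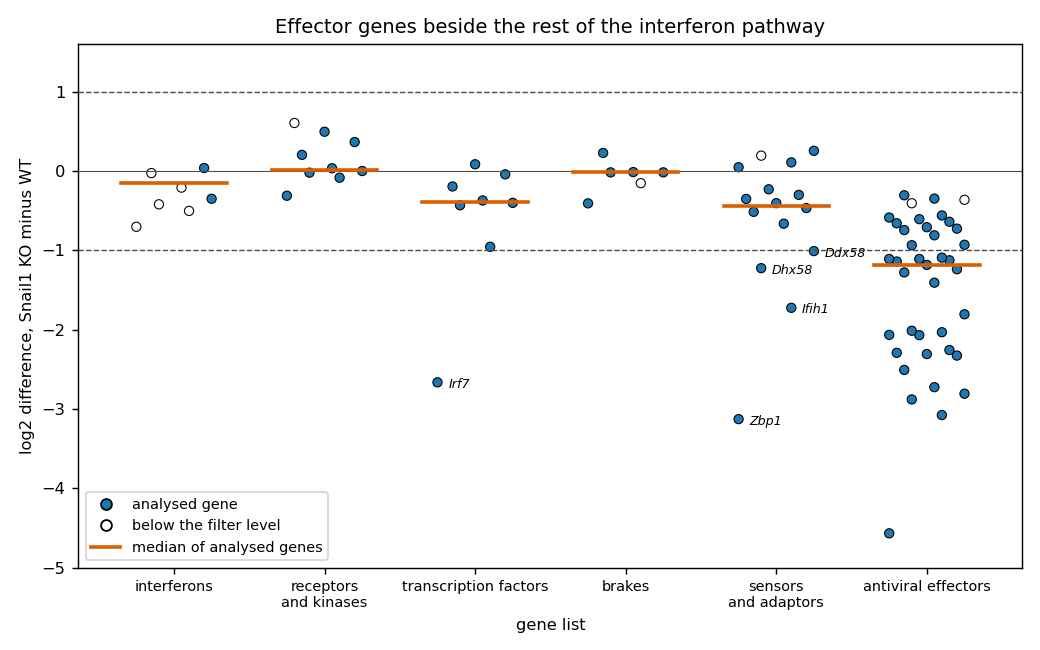
Log2 difference, Snail1 KO minus WT (y axis), of each gene of the 5 pathway lists and of the effectors (x axis), with genes below the filter level as open circles and the median of the analysed genes as an orange line. The medians of receptors and of brakes lie at 0.02 and -0.02, that of the effectors at -1.18. Those of interferons, transcription factors and sensors lie between, at -0.16, -0.39 and -0.44.

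Immune cells express many of these effectors, so markers of such cells were read on the same arrays. Of 9 leukocyte and macrophage markers, 6 lay above the filter level in WT and 5 in Snail1 KO, between 2.90 and 7.27 and between 2.69 and 7.20. Their summed linear signal was 476 in WT and 382 in Snail1 KO. Ptprc, the pan-leukocyte antigen CD45, read 2.96 in WT against 3.29 in Snail1 KO, both under the filter level. Coro1a was the 1 marker past 2-fold, at 6.80 and 4.84 in its brightest probe set, while its other 2 differed by log2 values of -1.64 and 0.23. Coro1a was set apart after its values were seen, so a sum without it does not describe the list as chosen. That sum was 365 in WT and 353 in Snail1 KO. The 5 markers of plasmacytoid dendritic cells, the specialised interferon producers, had a summed linear signal of 175 and 154, and all 4 analysed ones were within 2-fold. Of 5 fibroblast markers, 3 were above the filter level on each array and none past 2-fold. They lay between 3.16 and 11.43 in WT and between 3.44 and 11.37 in Snail1 KO. Their summed linear signal was 3504 in WT and 3479 in Snail1 KO. Most of this sum came from Thy1, at 11.43 and 11.37, and Dcn, at 9.45 and 9.62. Col1a1 was at 4.85 and 4.97, and Pdgfra and Lum were under the filter level on both arrays. The part of such cells in the effector differences was not tested.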

How the data were processed

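The log2 expression values were deposited by the authors, 1 per probe set and array, and were made with RMA and affy per the submitters' processing notes. Tool versions were not given in the sources used here. RMA corrects background, equalises the distribution of the arrays and compresses differences of dim probe sets, so a change of total mRNA cannot be seen. No detection calls were used. The arrays held 45101 probe sets, 64 of them controls; 34945 had 1 gene symbol in GEO's platform annotation, 932 several and 9160 none, and only the first were used. The number of arrays, 1 per group, limits the precision. Genes were counted at 2-fold among those above the filter level. The members, pathway lists and markers were chosen with earlier results of these data known. All 41 members were named by rule, and for each pathway list up to 4 genes with the largest differences. Ifna1, Ifna4, Ptprc, Coro1a and the fibroblast markers were named after their values were seen. Where Rigi was listed, the array's symbol Ddx58 was used. Scripts ran in Python 3.11.15 with pandas 2.3.3 and numpy 2.4.6 and were tested on simulated data. A further motif that was searched is not reported here. Alternatives were other filters, probe-set rules, thresholds, centring and a looser ISRE.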

Additional observations from a re-analysis of the deposited data

How the results depend on the processing

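With 1 array per group no array could be left out. No paired analysis was possible because each group holds 1 array. Without the filter, with the filter at the 60th percentile, with the mean of all probe sets, without probe sets that can bind several transcripts and after centring on the median gene, every member analysed was lower, 19 to 24 of the 31 to 39 members left were at least 2-fold lower, against 1.34% to 1.95% of all genes, none was 2-fold higher, and the median lay between -1.18 and -1.12. Oasl2 has a value only from a probe set of the kind left out in the fourth of these. With the mean of all probe sets 6 members moved by over the robust SD of all genes, among them Herc6, to -0.47, and Pml, to -0.39, and 3 pathway genes were past 2-fold in place of 5. At 1.5-fold 34 of 37 members were lower, at 3-fold 15 and at 4-fold 14. Of the pathway genes 3 were past 3-fold and 2 past 4-fold. The shares of all genes analysed that were lower at 1.5-fold, 3-fold and 4-fold were 6.08%, 0.699% and 0.419%. The looser motif, GAAA, any 2 bases and GAA, was in 12 of 32 members, against 9.76% of all genes. No background was measured per probe set, which limits Oasl2, Sp100 and the other dim values most.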
